A study of Rattus norvegicus with 4 samples.

Results

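The 18 families of developmental transcription factors and cofactors measured here (Sox, sine oculis homeobox, Eya, Pax, Gata, Lhx, Dlx, Hox, Pou, Barhl, Tbx, Id, Prox, Gfi, Meis, Irx, Runx and Fox, without Foxj1) were chosen by gene symbol. Every array probe whose current rat symbol belonged to one of these families was taken, with no regard to its measured value. This gave 142 probes of 99 genes (2 of them non-coding RNAs of Hox clusters), of 12323 genes named on the array. Rat crista ampullaris, the sensory ridge of a semicircular canal, was cut by laser capture microdissection into layers, and polyadenylated RNA was amplified and hybridised to single-colour whole-genome oligonucleotide arrays. The hair cell layer (hair layer, 2 arrays) was the superficial tissue, where hair cells of both types sit with the cytoplasm of supporting cells in between. The supporting cell layer (supporting layer, 2 arrays) was the deeper tissue of supporting cell bodies on the basal lamina, taken in a second pass, and no marker was used for sorting. Per the labels, cells were recognised by morphology, hair cells by their ciliary tuft, outer nucleus and calyx ending, so nerve terminals could be part of the superficial layer. The strain, age and sex of the rats are not stated in the labels, and neither group carried a stated treatment or allele. The labels do not tell whether the arrays of a layer stem from separate animals or captures, so p-values measure the spread between these arrays, which may be technical.

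These families set the identity of cells in the inner ear. Sox, Pax, sine oculis homeobox, Eya and Gata factors take part in forming the otic placode and its sensory patches, while Gfi1, Barhl1 and the Pou4 proteins act in hair cells as they mature and survive. Id proteins have no DNA-binding region and hold back basic helix-loop-helix factors such as those that start hair cell formation. Fox, Runx, Tbx and Hox factors have wide roles in mesenchyme, blood, vessels, bone and the body axis, and many of them are quiet in a mature epithelium.

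The arrays of the layers differed in brightness before any scaling. The median raw intensity (scanner units, local background removed) over 33849 gene probes was 26.5 and 17.0 on hair layer arrays 1 and 2, and 12.1 and 12 on supporting layer arrays 1 and 2. Between 39.7% and 48.8% of the probes were flagged as detected. Arrays of a layer correlated at r of 0.993 and 0.994 over 11059 probes, a value across probes, which are not independent replicates. The number of arrays, 2 a layer, limits the precision of every difference below. In bulk RNA, fewer cells of a type and less RNA per cell cannot be told apart.

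Of the 99 genes, 44 had a probe detected on at least 2 of the 4 arrays and were tested (44.4%, against 63.0% of all named genes). Differences are given as the supporting minus the hair layer on log2 quantile-normalized intensity, with the standard error (SE) of limma's model and its p-value adjusted by Benjamini-Hochberg over 16483 probes. A gene is called at an adjusted p under 0.05, and the brightest probe stands for a gene. By this test 18 genes were higher in the supporting layer, 12 were higher in the hair layer and 14 were not called. Among all 7768 genes tested, 65.4% were called, 28.2% higher in the supporting layer and 37.2% higher in the hair layer, so most genes on these arrays passed and a call by itself does not set these families apart. Called were 68.2% of the tested family members, 40.9% higher in the supporting layer and 27.3% higher in the hair layer. Over the 40 members detected in both layers the median change was 0.34, against 0.03 over all genes detected in both, and 27 of these 40 were called, beside 63.2% of all such genes. In 41 of 44 members every usable value of a layer lay above every one of the other on the normalized scale (4 of them, Foxn3, Gfi1b, Id4 and Sox5, with 1 usable value in a layer), beside 89.2% of all tested genes.

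The split between the layers depended on the scaling. Without any scaling, in raw intensity, the median change of all tested probes was -0.67 in place of 0.01, and 3 members were then called higher in the supporting layer and 20 in the hair layer, in place of 18 and 12. Of all tested genes, 9.22% and 59.9% were called on these sides without scaling, and 52.3% of members against 69.1% of all genes were called in either direction. In raw intensity the usable supporting layer values exceeded the hair layer values for 9 of the 44 members (20.5%, against 15.2% of all tested genes). The 9 were Foxc1, Foxk1, Gata2, Gata3, Id4, Prox1, Runx2, Sox5 and Tbx18, where Id4 and Sox5 had 1 usable supporting layer value. The hair layer values were the higher for 27 (61.4%, against 73.8% of all tested genes), and 8 overlapped. Under the same test 6 members were called with each array left out and with every processing choice that gave them a value (Runx2 has none where only probes detected on all 4 arrays enter): Foxc1, Runx2 and Tbx18 on the supporting side, and Foxk2, Lhx9 and Sox10 on the hair cell side. With the scanner software's own normalized intensity 7 were called on the supporting side (Foxc1, Foxk1, Gata2, Gata3, Prox1, Runx2 and Tbx18) and 6 on the hair cell side (Foxk2, Foxn3, Lhx9, Runx1, Sox10 and Sox4), 29.5% of members against 34.3% of all tested genes. Of the 30 calls, 11 held with each of the 4 arrays left out in turn, and 18 were lost without at least 1 of them. The remaining call, Foxn3, held in 3 such runs and could not be fitted without hair layer array 2. In every run that left out an array, both counts were lower than with all 4. The share of all tested genes called was lower too, under the 65.4% called with all 4 arrays. Such a run keeps 1 array in a layer.

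**Figure D1:**
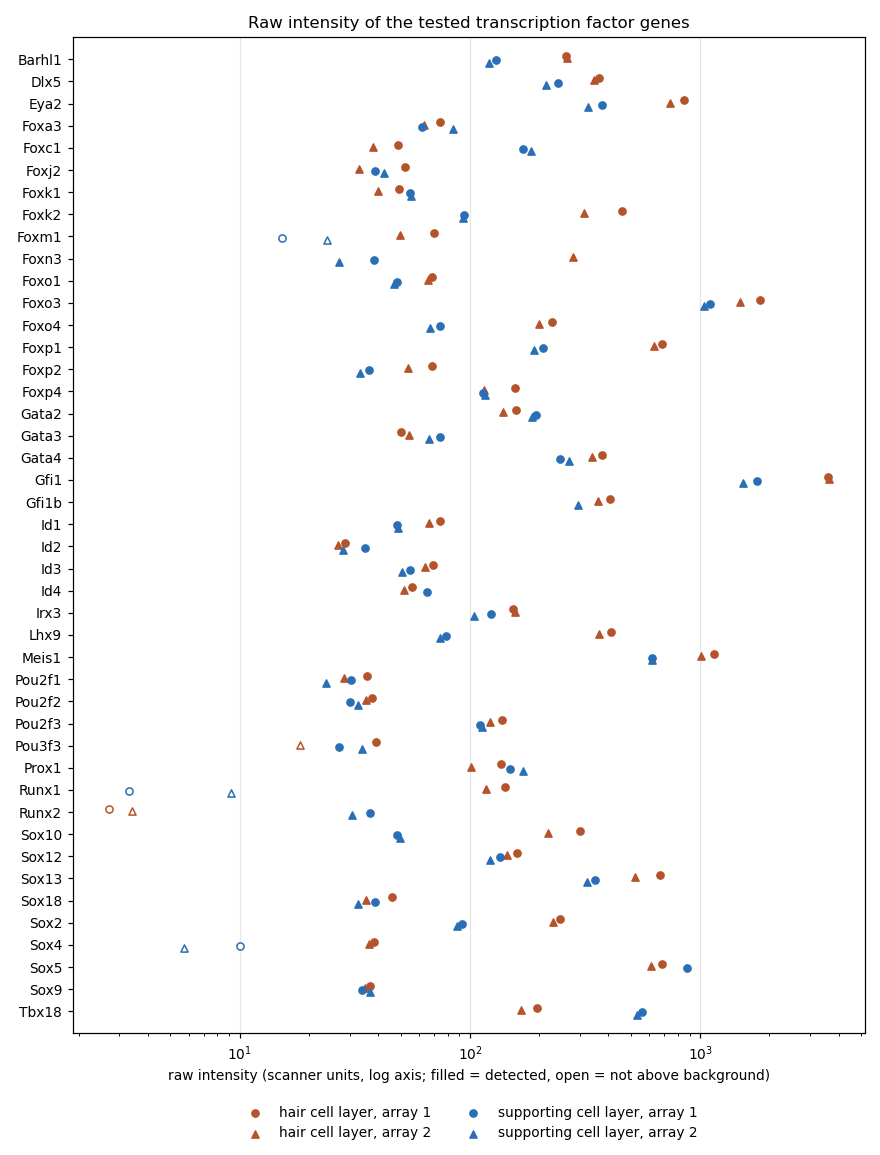
Raw intensity (scanner units, log axis) of the 44 tested genes on each of the 4 arrays, 1 row a gene, filled where detected and open where not above background. Spots left out are not drawn, so Foxn3, Gfi1b, Id4 and Sox5 have 3 points. In 9 genes the supporting layer points lie to the right of the hair layer points, in 27 they lie to the left, and 8 overlap.

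**Figure D2:**
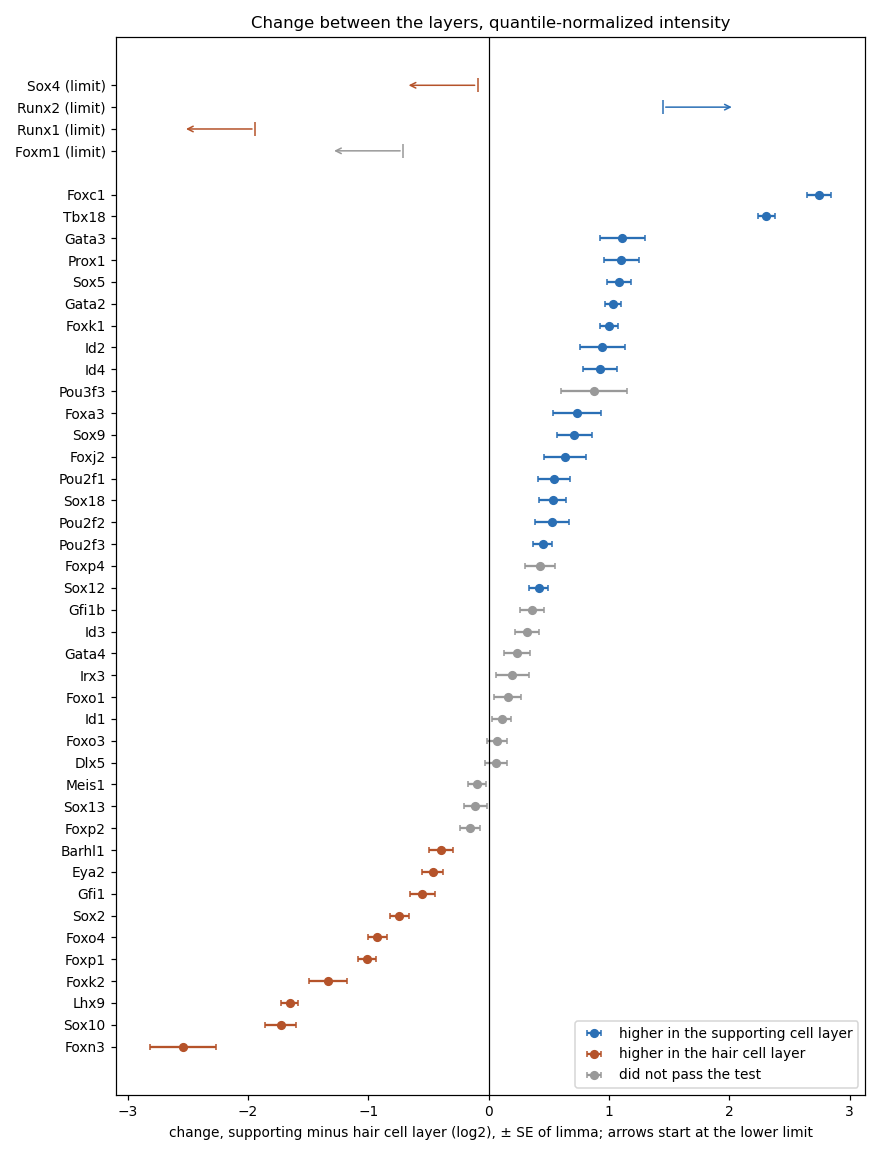
Change between the layers (supporting minus hair layer, log2 of quantile-normalized intensity, bars ± SE of limma) for each tested gene, with arrows from the lower limit for genes not above background in a layer. Foxc1 at 2.74 and Tbx18 at 2.31 lie farthest to the supporting side and Foxn3 at -2.54 farthest to the hair cell side among genes detected in both layers; Sox9, Sox12, Sox18, Pou2f1, Pou2f2, Pou2f3 and Foxj2, called on the supporting side, turn to the hair cell side in unscaled raw intensity.

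Foxc1, Tbx18 and Runx2 were the members most clearly higher in the supporting layer. Foxc1, a forkhead factor of mesenchyme and vessels, had raw intensities of 48.9 and 38.0 in the hair layer and 170.5 and 184.1 in the supporting layer. The layers did not overlap, and the change was 2.74 ± 0.10 (SE), a 6.70-fold difference (limma adjusted p = 0.00134). Tbx18, a T-box factor of mesenchyme that patterns the tissue around the otic epithelium, had raw intensities of 195 and 166 against 559 and 534 at its brightest probe, a change of 2.31 ± 0.07 (SE; limma adjusted p = 0.00117). Its dimmer probe gave 155 and 124 against 232 and 225, a change of 1.40 ± 0.08 (SE; limma adjusted p = 0.002), so both probes had the same direction and differed in size. Runx2, the Runt-domain factor needed for bone formation, was not above background on either hair layer array, at 2.70 and 3.39, and was detected at 36.8 and 30.8 in the supporting layer. It was at least 2.73-fold higher there (limma adjusted p = 0.00325), where the limit sets the mean of the brighter layer against the detection limits of the arrays of the other. Runx2 signal in the supporting layer lay close to those limits.

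The promoters of these 3 genes are shown because they carry the largest differences on the supporting side; of the 99 genes, 63 have a promoter in the RefSeq table used (GRCr8). Each window runs from 250 bases before to 50 bases after an annotated start, 5′ to 3′ on the gene's strand. Capitals mark the Runt core TGTGGT or its reverse complement ACCACA, and the CCAAT box or its reverse complement ATTGG. No marked match overlaps another in these windows.
Foxc1 chr17:32844051-32844350 (-): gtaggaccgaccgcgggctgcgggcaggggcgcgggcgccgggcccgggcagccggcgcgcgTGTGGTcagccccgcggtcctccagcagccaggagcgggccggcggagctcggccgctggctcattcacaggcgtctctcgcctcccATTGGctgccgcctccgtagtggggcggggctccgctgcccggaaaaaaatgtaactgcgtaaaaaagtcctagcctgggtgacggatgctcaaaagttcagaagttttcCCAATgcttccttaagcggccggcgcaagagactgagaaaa
Tbx18 chr8:97559916-97560215 (-): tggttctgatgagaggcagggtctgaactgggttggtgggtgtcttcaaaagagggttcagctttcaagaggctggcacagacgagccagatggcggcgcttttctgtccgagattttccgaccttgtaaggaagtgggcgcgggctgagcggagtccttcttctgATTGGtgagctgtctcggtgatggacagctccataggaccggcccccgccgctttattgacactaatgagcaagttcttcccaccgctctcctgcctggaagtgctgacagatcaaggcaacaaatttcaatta
Runx2, start 1 chr9:23664808-23665107 (+): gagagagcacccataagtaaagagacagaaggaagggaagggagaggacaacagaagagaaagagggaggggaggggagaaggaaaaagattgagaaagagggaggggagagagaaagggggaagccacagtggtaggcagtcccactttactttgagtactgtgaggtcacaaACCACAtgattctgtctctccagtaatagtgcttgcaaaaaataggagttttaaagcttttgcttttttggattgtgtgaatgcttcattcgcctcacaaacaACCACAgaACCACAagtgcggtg
Runx2, start 2 chr9:23742990-23743289 (+): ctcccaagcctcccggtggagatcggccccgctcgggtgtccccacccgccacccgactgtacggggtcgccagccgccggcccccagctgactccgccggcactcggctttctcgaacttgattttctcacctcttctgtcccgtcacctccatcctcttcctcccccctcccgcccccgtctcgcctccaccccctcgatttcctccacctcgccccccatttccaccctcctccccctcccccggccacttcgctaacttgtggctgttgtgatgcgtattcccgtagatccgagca
The first Runx2 window holds 3 Runt cores and the second none, the Foxc1 window holds 1 Runt core and 2 CCAAT boxes, and the Tbx18 window 1 CCAAT box. On either strand, 17.3% of all 33469 promoters in the table hold a Runt core and 37.5% a CCAAT box, against 12.1% and 45.5% of the 66 promoters of the family members. The G+C content was 66.7% for Foxc1, 54% for Tbx18, 46.3% for the first Runx2 window and 66.7% for the second. The GC box GGGCGG was in 56.1% of the members' promoters against 33.1% of all, and the Sox core ACAAT in 21.2% against 33.7%. The forkhead core TAAACA was in 4.55% against 13.7%, the GATA core AGATAA in 1.52% against 11.6%, and TATAAA in 9.09% against 14.2%. These shares describe letters in these windows and say nothing of binding.

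The summed markers of vessel and connective tissue cells were higher in the same layer as these 3 genes, but single markers went both ways. Of 9 tested markers of endothelium and pericytes, 7 were called higher in the supporting layer, 1 higher in the hair layer and 1 was not called. The 1 higher in the hair layer was Vwf, at 359 and 364 against 45.8 and 36.0 (-2.48 ± 0.16, limma adjusted p = 0.00237), and Flt1 was not called. The summed normalized intensity of the 8 tested vessel markers with values on every array was 503 and 575 in the hair layer and 1549 and 1573 in the supporting layer. Rgs5 and Esam were not above background in the hair layer. Of 6 tested connective tissue markers, 2 were called on each side, with sums of 862 and 883 against 1585 and 1629. Mgp, at 178 and 157 against 543 and 482, and Col1a2 were called on the supporting side. Fbn1 and Fn1 were called on the hair cell side and were not above background in the supporting layer, and Col1a1 and Dcn were not called. For cartilage and bone the 5 tested markers summed to 4692 and 4556 against 4892 and 4703, 1 called on each side, and Bglap, an osteoblast marker, was not above background in the supporting layer. The part of other cells in the signal of Foxc1, Tbx18 and Runx2 was not tested.

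Gata2, Gata3, Prox1, Sox5, Foxk1, Id2 and Id4 were also called on the supporting side, with smaller changes. Gata2, a zinc-finger factor of blood and endothelium that is also active in the ear, had raw intensities of 158.5 and 139.9 against 194 and 186, a change of 1.03 ± 0.07 (SE; limma adjusted p = 0.0024). Gata3, a zinc-finger factor needed for ear formation, had 50.2 and 54.2 against 74.4 and 66.6, a change of 1.11 ± 0.19 (SE; limma adjusted p = 0.0152). Both were higher in the supporting layer on raw and on scaled values, without overlap, though the Gata3 call was lost without supporting layer array 1, at an adjusted p of 0.0528. Gata4, a factor of heart and endoderm, was at 374 and 340.1 against 246 and 269 and was not called (0.23 ± 0.11, limma adjusted p = 0.135). Gata1, the erythroid factor, was detected on no array, at 10.49 to 13.25.

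Prox1, a homeodomain factor of supporting cells and lymphatic endothelium, had raw intensities of 137 and 101 against 149 and 169.7. The change was 1.10 ± 0.14 (SE; limma adjusted p = 0.00861) and the layers did not overlap, but the call was lost without hair layer array 2, at an adjusted p of 0.0524. Sox5, a factor of cartilage and glia without an activation domain, had 681 and 610.4 against 876, with 1 supporting layer spot left out as contaminated. Its change of 1.09 ± 0.10 rests on 3 arrays (limma adjusted p = 0.0114) and was not called without hair layer array 1 or without array 2. Foxk1, a forkhead factor of metabolism and muscle precursors, had 48.9 and 40.0 against 55.0 and 55.5 at its brightest probe, a change of 1.0 ± 0.07 (SE; limma adjusted p = 0.00266). In unscaled raw intensity Gata2, Gata3, Prox1, Sox5 and Foxk1 kept their direction with changes from 0.32 to 0.44 and none was called.

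Of the 4 Id genes 2 were called, both higher in the supporting layer. Id2 was at 28.7 and 26.7 against 35.0 and 28.0 in raw intensity, where the layers overlapped. Its change was 0.95 ± 0.18 (SE; limma adjusted p = 0.0209), not called without hair layer array 1 or without supporting layer array 1. Id4 was at 56.1 and 51.7 against 65.3, with the other supporting layer spot left out as irregular, and its change of 0.93 ± 0.14 rests on 3 arrays (limma adjusted p = 0.0276); it was not called without either hair layer array. Id1, at 74.4 and 66.4 against 48.0 and 48.6, changed by 0.11 ± 0.08 (limma adjusted p = 0.304), and Id3, at 69.0 and 64.0 against 55.0 and 50.8, by 0.32 ± 0.10 (limma adjusted p = 0.0631). The Id1 and Id3 raw values were higher in the hair layer, against a positive change on the scaled values, and neither gene was called.

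A further set was called on the supporting side, but turned direction or lost nearly all change in unscaled raw intensity, where the median of all probes is itself -0.67. With each of the other scalings tried, their direction held, but their calls did not. All lost their call with the scanner software's normalized intensity, and all but Foxa3 with median scaling. Pou2f1, Foxj2 and Foxa3 also lost it when scaled on probes detected on all 4 arrays. Sox9, a factor of the otic placode and of cartilage, had raw intensities of 36.8 and 35.0 in the hair layer and 33.9 and 36.7 in the supporting layer, which overlap. After quantile normalization they became 25.04 and 31.0 against 43.6 and 47.7, and the change was 0.71 ± 0.15 (SE; limma adjusted p = 0.0239), against -0.026 in unscaled raw intensity. Sox18, an endothelial factor, was at 45.7 and 35.3 against 38.7 and 32.8, and Sox12, of the same group as Sox4 and Sox11, at 161 and 144 against 135 and 122. Their changes of 0.53 ± 0.11 (limma adjusted p = 0.0237) and 0.41 ± 0.08 (limma adjusted p = 0.0194) turned to -0.17 and -0.25 without scaling.

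The Pou2 genes, whose proteins bind the octamer motif, did the same. Pou2f1, a widely expressed octamer factor, was at 35.8 and 28.3 against 30.5 and 23.7, and Pou2f2, an octamer factor of B cells and neurons, at 37.6 and 35.5 against 30.2 and 32.7. Pou2f3, a factor of epidermis and chemosensory cells, was at 138 and 122 against 110.5 and 113. Their changes of 0.54 ± 0.14, 0.53 ± 0.14 and 0.45 ± 0.08 (limma adjusted p = 0.0372, 0.0425 and 0.0166) turned to -0.25, -0.22 and -0.21 without scaling. Foxj2, a forkhead activator, had 52.4 and 32.8 against 38.6 and 42.2, a change of 0.63 ± 0.18 (limma adjusted p = 0.0476) that became -0.039. Foxa3, a forkhead factor of liver and gut, had 74.2 and 63.3 against 61.9 and 84.8, a change of 0.73 ± 0.20 (limma adjusted p = 0.045) that became 0.08. Each of these 8 genes lost its call when at least 2 of the 4 arrays were left out in turn. Among members detected on all 4 arrays, the 14 with a mean normalized intensity under 100 held 10 calls on the supporting side and 0 on the hair cell side, and the 21 at or over 100 held 5 and 9. Over all named genes the shares on the supporting and hair cell side were 36.1% and 23.1% under 100, and 29.8% and 38.2% at or over it. The part of brightness in these calls was not tested further.

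The 12 members higher in the hair layer included Runx1, Sox10, Lhx9, Foxn3 and Foxk2 among those with the largest differences. Lhx9, a LIM-homeodomain factor of gonad and brain development, had raw intensities of 411 and 364 against 79.0 and 74.3. Its change was -1.65 ± 0.07 (SE; limma adjusted p = 0.00146), a 3.14-fold difference with no overlap. Sox10, a factor of otic epithelium, Schwann cells and other neural crest derivatives, had 302 and 218 against 48.1 and 49.8. Its change was -1.73 ± 0.13 (SE; limma adjusted p = 0.0029), a 3.31-fold difference that was called on every run that left out an array. Of the 7 tested Schwann cell markers 2 were called higher in the supporting and 1 higher in the hair layer, with sums of 3143 and 3206 against 3758 and 3813, so the summed Schwann cell signal lay on the other side from Sox10.

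Runx1, the Runt-domain factor of blood and of sensory neurons, had the opposite distribution from Runx2. It was at 142 and 117 in the hair layer and not above background at 3.31 and 9.18 in the supporting layer, at least 3.84-fold higher in the hair layer (limma adjusted p = 0.0121). The call was lost without hair layer array 1 or array 2, with adjusted p up to 0.0791. Of 7 tested blood and immune markers, 3 were called on each side, and the 5 with values on every array summed to 272 and 290 against 226 and 211. Ahsp was not above background in the hair layer, nor Aif1 and C1qa in the supporting layer, and the part of blood cells in the Runx1 signal was not tested. Runx3 was detected on no array.

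Among Fox genes, Foxk2, the close relative of Foxk1, had 458 and 313 against 94.3 and 93.7, a change of -1.34 ± 0.16 (SE; limma adjusted p = 0.0072). Foxp1, a forkhead repressor of lung, blood and neural development, had 681 and 631 against 208 and 189.8, a change of -1.01 ± 0.08 (SE; limma adjusted p = 0.00308). Foxo4, a forkhead factor held in check by insulin signalling, had 227 and 199 against 74.5 and 66.8, a change of -0.92 ± 0.08 (SE; limma adjusted p = 0.00388). All 3 were far brighter in the hair layer on both arrays and kept their calls with any array left out, but Foxp1 and Foxo4 were not called with the scanner software's normalized intensity. Foxn3, a checkpoint repressor, had 282 on hair layer array 2 against 38.2 and 26.9, the other hair layer spot being left out as contaminated. Its change of -2.54 ± 0.27 (limma adjusted p = 0.0149) was the largest toward the hair layer among members detected in both layers but rests on 3 arrays and on its brightest probe.

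Gfi1, Barhl1 and Eya2 had smaller differences on the same side, while Lhx3 and Pou4f1, also factors of hair cells, were detected on no array. Gfi1, a zinc-finger repressor needed for hair cell survival, was at 3608 and 3639 against 1764 and 1541, a change of -0.55 ± 0.11 (SE; limma adjusted p = 0.02). Barhl1, a homeodomain factor needed to keep hair cells alive, had 262 and 263 against 130 and 121, a change of -0.39 ± 0.10 (SE; limma adjusted p = 0.0392). Eya2, a phosphatase and transcriptional coactivator, had 854 and 742 against 376 and 325, a change of -0.47 ± 0.09 (SE; limma adjusted p = 0.0185). None of the 3 overlapped between the layers, beside 89.2% of all tested genes, but each lost its call when at least 3 of the 4 arrays were left out in turn. With median scaling or the scanner software's normalized intensity none of the 3 was called. On the same arrays 10 of 12 hair cell markers were higher in the hair layer and 0 in the supporting layer, with sums of 6188 and 6316 against 1260 and 1217. Cdh23, Espn, Myo7a and Lhfpl5 were not above background in the supporting layer. Gfi1, Barhl1 and Eya2 were detected on both supporting layer arrays; the part of remaining hair cell material in that signal was not tested.

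Sox2, needed for the sensory epithelium to form and typical of supporting cells, was at 246 and 231 in the hair layer and 92.8 and 87.8 in the supporting layer at its brightest probe, a change of -0.74 ± 0.08 (SE; limma adjusted p = 0.00544). Its other tested probe gave the opposite. There the hair layer was not above background at -0.48 and 3.86 and the supporting layer was at 45.3 and 50.7, at least 3.85-fold higher (limma adjusted p = 0.00523). The direction of Sox2 between the layers therefore cannot be given from these arrays. Of 10 tested supporting cell markers, 3 were called higher in the supporting and 4 in the hair layer, and their sums of 25010 and 24834 against 23402 and 24183 lay close together. The labelled supporting layer thus had less hair cell marker signal, but no higher sum of supporting cell markers. Sox4, a factor of progenitor cells, was at 38.4 and 36.4 against 10 and 5.74, the latter not above background, at least 1.06-fold higher in the hair layer (limma adjusted p = 0.031), and not called without hair layer array 1 or array 2.

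**Figure D3:**
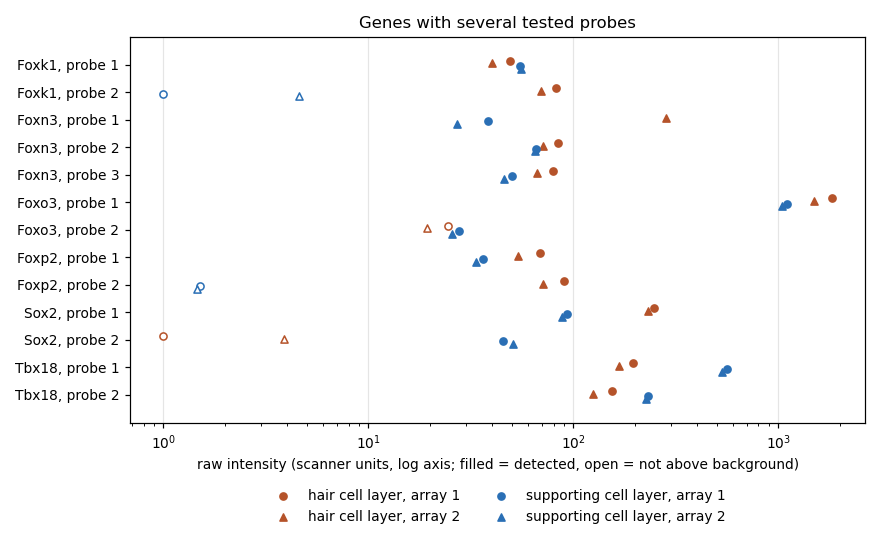
Raw intensity (scanner units, log axis, values under 1 drawn at 1) of every tested probe of Foxk1, Foxn3, Foxo3, Foxp2, Sox2 and Tbx18. Points are filled where detected and open where not above background. Foxm1, Id3 and Sox12, which also have several tested probes, are not drawn. The probes of Sox2 lie in opposite order, with the supporting layer at 92.8 and 87.8 on one and 45.3 and 50.7 on the other, while both Tbx18 probes have the supporting layer to the right.

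Some members had tested probes that disagreed. Of the 33 members with several probes, 9 had several tested probes. Among these 9, 6 had changes of opposite sign (Foxk1, Foxm1, Foxn3, Id3, Sox12 and Sox2), and 3 of these were called in opposite directions (Foxk1, Foxn3 and Sox2). Neither probe of Foxm1 or of Id3 was called. Untested probes do not enter this count, and the share over all genes with several tested probes was not worked out. Further probes of Foxc1, Runx2, Lhx9, Foxk2, Gata2 and Barhl1, among others, were detected on no array. The other Barhl1 probe was at 16.3 and 7.88 against 10.6 and 6.75, and the other Lhx9 probe at 5.96 and 13.7 against 1.90 and 4.7. The dimmer Foxk1 probe was at 82.7 and 69.7 against -0.79 and 4.60, the latter not above background, at least 2.27-fold higher in the hair layer (limma adjusted p = 0.0114), against its brightest probe. Brightest here means the highest mean over the 4 arrays after normalization. A dimmer Foxn3 probe was at 84.0 and 71.4 against 65.7 and 65.1 and was called on the supporting side with a change of 0.41 ± 0.07 (limma adjusted p = 0.0152), which became -0.24 without scaling. The remaining Foxn3 probe changed by 0.04 ± 0.08 (limma adjusted p = 0.694).

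Foxp2, a forkhead repressor of brain and airway, was not called at its brightest probe, at 68.7 and 54.0 against 36.3 and 33.3 (-0.15 ± 0.08, limma adjusted p = 0.183). Its other probe was at 89.9 and 71.1 against 1.51 and 1.46, the latter not above background, at least 2.39-fold higher in the hair layer (limma adjusted p = 0.00109). The sizes differ widely between these probes of the same gene. Foxm1, a cell cycle factor, was at 69.7 and 49.5 against 15.3 and 24.0, the latter not above background, and was not called (at least 1.64-fold higher in the hair layer, limma adjusted p = 0.0532). Its other probe changed by 0.37 ± 0.17 (limma adjusted p = 0.136). The other Sox12 probe, at 49.1 and 47.7 against 22.2 and 7.62, the latter not above background, was not called either (limma adjusted p = 0.195), and the other Id3 probe had an adjusted p of 0.995. Whether such probes read different transcripts was not tested.

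Among the 14 members that were not called were some with strong signal in both layers. Foxo3, a forkhead factor of stress response, was at 1822 and 1490 against 1107 and 1036, a change of 0.07 ± 0.08 (SE; limma adjusted p = 0.492). A dimmer Foxo3 probe, not above background in the hair layer, was at least 2.05-fold higher in the supporting layer (limma adjusted p = 0.00508). Meis1, a homeodomain partner of Hox and Pbx proteins, was at 1146 and 1013 against 618 and 615, a change of -0.10 ± 0.07 (limma adjusted p = 0.298). Sox13, a relative of Sox5, was at 673 and 520.2 against 349 and 323, a change of -0.11 ± 0.10 (limma adjusted p = 0.381). All 3 were detected on every array, and their higher raw values in the hair layer did not pass the test once the arrays were scaled.

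Dlx5, a homeodomain factor of the vestibular ear, was at 365 and 345 against 241 and 214, a change of 0.06 ± 0.09 (limma adjusted p = 0.566). Irx3, an Iroquois homeodomain factor, was at 154 and 156 against 123 and 105 (0.20 ± 0.14, limma adjusted p = 0.269). Foxo1, a relative of Foxo3, was at 68.1 and 65.7 against 48.4 and 47.0 (0.16 ± 0.11, limma adjusted p = 0.276). None of the 3 passed the test, and after scaling their values lay close together. Foxp4 was at 157 and 115 against 114 and 116 (0.43 ± 0.12, limma adjusted p = 0.0504), and Pou3f3, a factor of neural and otic mesenchyme cells, at 39.2 and 18.4, the latter not above background, against 26.9 and 34.1 (0.87 ± 0.27, limma adjusted p = 0.0618). Gfi1b, the blood relative of Gfi1, was at 406 and 361 against 294 on the 1 supporting layer array with a value (0.36 ± 0.10 over 3 arrays, limma adjusted p = 0.0745).

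**Figure D4:**
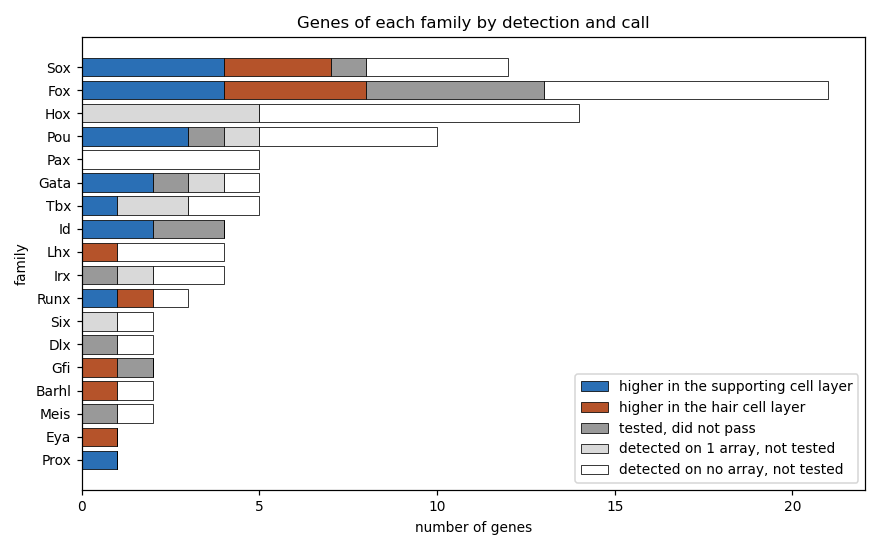
Number of genes (horizontal axis) of each of the 18 families by detection and call: higher in the supporting layer, higher in the hair layer, tested and not called, detected on 1 array and not tested, or detected on no array. None of the 14 Hox entries, 2 of them non-coding RNAs, and none of the 5 Pax genes was tested, while 13 Fox and 8 Sox genes were; several of the calls on the supporting side, those of Sox9, Sox12, Sox18, Pou2f1, Pou2f2, Pou2f3 and Foxj2, reverse in unscaled raw intensity.

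More members were left untested than were tested: 55 of 99 genes were not tested, of which 44 were detected on no array and 11 on 1 array at the probe chosen for them. At least 1 array detected 55.6% of members, against 69.0% of all named genes. None of the 14 Hox entries (12 protein-coding genes and the non-coding RNAs Hoxa11-as and Hoxb5os), the 5 Pax genes (Pax1, Pax4, Pax6, Pax8 and Pax9) and the 2 sine oculis homeobox genes (Six4 and Six6) was tested. Pax8, an early factor of the otic placode, was at 5.44 and 5.43 against 0.62 and 7.47, and Pax6, the eye factor, at 25.4 and 10.2 against 17.0 and 3.89. The raw intensity of the genes detected on no array had a median of 7.91 and 6.14 on the hair layer arrays and 5.33 and 6.66 on the supporting layer arrays, and reached 28.5 at most. The negative control probes had medians of 5.54 and 4.78, and of 4.30 and 4.14. Pou4f1, which acts with its relatives in sensory neurons and hair cells, was at 3.22 and 7.03 against 1.95 and 4.63. Lhx3, a LIM-homeodomain factor of hair cells, was at 3.81 and 16.8 against 6.78 and 9.86. Sox11, a progenitor factor, was at 6.96 and 5.68 against 7.24 and 1.76. Being under the detection limit of these arrays does not show that a gene is silent.

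The same held for Meis2, Dlx3, Irx5, Lhx1, Pou1f1, Pou3f1 and Pou3f4, all detected on no array. Pou3f4, a factor of the mesenchyme around the ear, was at 7.21 and 10.7 against 7.15 and 3.97. Sox17, an endothelial and endoderm factor, was not above background at its chosen probe, at 9.72 and 11.0 against 18.8 and 23.3, while another of its probes was detected on 1 supporting layer array at 29.2. Barhl2 had a spot of 1069 on hair layer array 1 that was left out as contaminated, and was not above background on the other 3 arrays. Probes for Pou4f3, Eya1, Eya4, Pax2, Tbx1, Tbx2 and Dlx6 were not analysed here.

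Of the 11 members detected on 1 array, 9 were detected on hair layer array 1: Gata5, Hoxa2, Hoxb13, Hoxb5, Hoxd1, Irx1, Pou4f2, Six4 and Tbx3. Over all named genes 734 were detected on 1 array, 61.2% of them on that array, against 81.8% of the members. Hoxb13, a factor of the tail end of the body axis, was at 109.5 there and at 6.52, 4.23 and -5.10 on the other arrays, and Gata5, a heart and endoderm factor, at 114 and at 4.74, 6.84 and 13.97. Hoxd1, a Hox factor of early segments, was at 67.6 there and at 7.31 against 18.1 and 9.49, and Six4, a factor of placodes, at 33.4 and 17.8 against 9.48 and 16.6. The second array of the same layer did not repeat these values. Tbx3, a T-box factor of several organs, was at 40.1 and 12.2 against 7.38 and 8.62.

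The cofactors through which these factors act were taken from a list of 50 partners and regulators, of which 41 were named on the array and 27 tested. Of these, 7 were higher in the supporting layer, 11 higher in the hair layer and 9 were not called. The shares of 25.9% and 40.7% lie near those of all genes (28.2% and 37.2%), so the counts do not set the cofactors apart. Pbx2 and Pbx3, partners of Meis and Hox proteins, were at 261 and 231 against 373 and 339, and at 159 and 146 against 263 and 240.4. Both were brighter in the supporting layer even in raw intensity, with changes of 1.24 ± 0.07 (limma adjusted p = 0.00199) and 1.39 ± 0.08 (limma adjusted p = 0.00195). Cbfb, the partner of all Runt proteins, was at 252 and 199 against 92.3 and 98.7, a change of -0.57 ± 0.11 (limma adjusted p = 0.0187).

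Around the LIM-homeodomain factor Lhx9, the cofactors went both ways. Lmo4, a LIM-only protein that competes for the shared cofactor Ldb1, was at 685 and 601 against 139 and 128, a change of -1.58 ± 0.07 (limma adjusted p = 0.00156). Ldb2 and Ssbp2, of the same complexes, were higher in the supporting layer, by 1.03 ± 0.12 (limma adjusted p = 0.00623) and 1.53 ± 0.08 (limma adjusted p = 0.00173), and Ldb1 was not called (0.38 ± 0.12 over 3 arrays, limma adjusted p = 0.0963). Zfpm1, a cofactor of Gata proteins, was higher in the hair layer (-1.38 ± 0.09, limma adjusted p = 0.00244), the other side from Gata2 and Gata3. Corepressors used by Gfi1 and its relatives were also split, with Kdm1a at -0.91 ± 0.19 (limma adjusted p = 0.0253) and Rcor1 at 0.44 ± 0.07 (limma adjusted p = 0.0133). Rfx1 and Rfx3, factors of ciliated and hair cells, went in opposite directions. Rfx1 was at 516 and 440.3 against 37.2 and 40.3, a change of -2.95 ± 0.09 (limma adjusted p = 0.00117). Rfx3 was not above background in the hair layer, at 6.11 and 3.31, and was at 55.0 and 51.1 in the supporting layer, at least 4.25-fold higher (limma adjusted p = 0.00211).

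**Figure D5:**
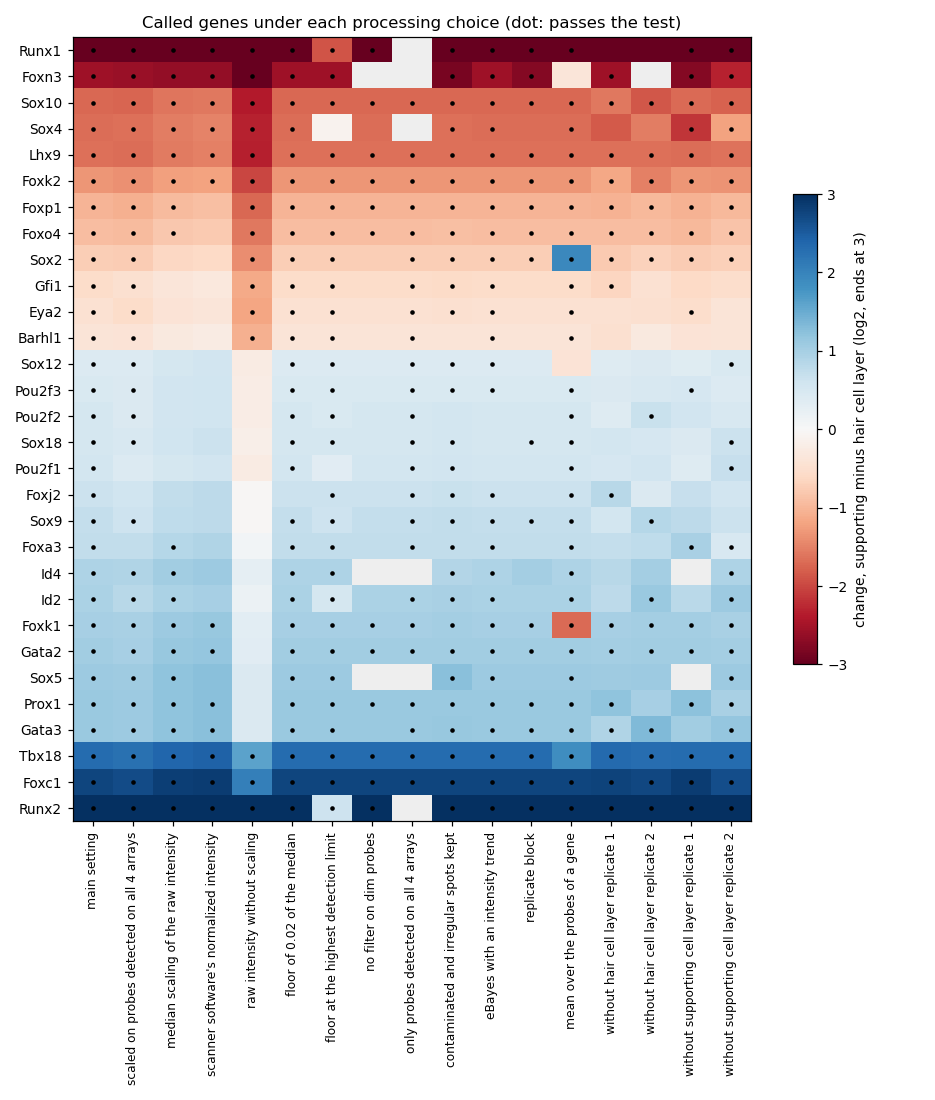
Change between the layers (log2, colour scale ending at 3 in both directions) of the 30 called genes (rows) under each processing choice and with each array left out (columns); a dot marks a call and a grey cell has no value. Foxc1, Runx2 and Tbx18 on the supporting side and Foxk2, Lhx9 and Sox10 on the hair cell side have a dot in every column where they have a value (Runx2 has none among probes detected on all 4 arrays), while 8 genes of the supporting side turn to the hair cell side or lose nearly all change in unscaled raw intensity.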

How the data were processed

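RNA of laser-captured rat crista ampullaris was measured on 4 arrays, 2 of the hair cell layer and 2 of the supporting cell layer. Per the file headers, slides were read with CodeLink Expression Analysis 4.0.0.23520, and each deposited file gives per spot a raw intensity corrected for local background, a normalized intensity and a quality flag. The authors' series table was not used for values: its supporting cell layer array 2 column is displaced by 2 rows. Probes were named from the platform annotation (16694 by gene identifier, 23 by symbol, 6 by synonym) and a RefSeq table of GRCr8 (192 by accession); 165 matched several genes, 7 disagreed and 16762 were unnamed. Contaminated, irregular and failed spots were left out (637, 69, 151 and 241 of 33849). Raw intensities were quantile-normalized, raised to 0.1 of the median and log2-transformed in R 4.3.3. Probes with a good or saturated flag on no fewer than 2 of the 4 arrays were fitted with limma 3.58.1 (lmFit, eBayes, two-sided). The procedure was run on simulated data where few probes changed, equally in both directions, and the layers did not differ in brightness. These settings differ from the data here, so the run does not cover the effect of scaling on the calls. The lower limits of fold use detection limits of 13.9, 18.5, 26.6 and 28.3 (normalized intensity).

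Genes named with values are members called with a change of at least 1 or a limit of at least 2, members whose probes disagree in sign, the member with the highest signal in each family, and a list of ear and mesenchyme factors. Other members named were chosen after their values were seen. Members, lists and tests were chosen with earlier results of these data known. Alternatives were other scalings, floors, filters, a trend, a block, probe means and each array left out; unscaled raw intensity and scaling on probes detected on all 4 arrays were added after seeing the data. With 2 arrays a layer, no test for outlying arrays was run.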

Additional observations from a re-analysis of the deposited data

How the results depend on the processing

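With 2 arrays a layer, the main counts were 18 members higher in the supporting and 12 in the hair layer. They were 7 and 6 with the scanner software's normalized intensity and 9 and 7 with no filter on dim probes, where more genes are tested. In unscaled raw intensity, added after seeing the data, they were 3 and 20. With each array left out in turn they ran from 8 to 14 and from 6 to 10. With replicate numbers as a block they were 9 and 8. Whether same-numbered arrays belong together is not known. Their deviations from the layer means correlated at -0.0022. With 2 arrays a layer both pairs give this same value by construction, so it cannot decide whether the arrays are paired. Median scaling, both other floors, the detected-on-all filter, kept flagged spots, the trend, probe means and the added scaling on shared probes left both counts within 1.5 times.

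Directions turned most in unscaled raw intensity, where the median change of all tested probes was -0.67: Dlx5 -0.64, Foxj2 -0.039, Foxo1 -0.49, Foxo3 -0.62, Foxp4 -0.23, Gata4 -0.47, Gfi1b -0.38, Id1 -0.54, Id3 -0.33, Irx3 -0.45, Pou2f1 -0.25, Pou2f2 -0.22, Pou2f3 -0.21, Sox12 -0.25, Sox18 -0.17, Sox9 -0.026, the dimmer Foxm1 probe -0.42 and the dimmer Foxn3 probes -0.24 and -0.60. With the mean over probes Foxk1 was -1.70, Sox12 -0.42 and Sox2 1.94. With the scanner's values Foxp2 was 0.0051 and Meis1 0.0093. Without supporting layer array 1 a dimmer Foxn3 probe was -0.022, and the runs that left out an array spanned -0.022 to 0.099 for it. The dimmer Id3 probe was 0.024 with flagged spots kept, 0.23 without hair layer array 2 and 0.24 without supporting layer array 1. Apart from the construction stated, the cause was not tested. Of the 30 called members 27 kept their direction in every planned setting. Signal close to the detection limit bounds Runx2, Sox4, Id2, Pou2f1 and Sox9.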

Other observations

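Several regulators outside these families also differed between the layers. Zeb2, a zinc-finger repressor of mesenchyme and glia, was not above background in the hair layer, at 10.1 and -3.42, and was at 68.2 and 60.0 in the supporting layer, at least 5.16-fold higher (limma adjusted p = 0.0219). Its relative Zeb1 was bright in both layers, at 663 and 675 against 383 and 355, and was not called (-0.14 ± 0.10, limma adjusted p = 0.284). Tle3, a corepressor of the Groucho family, was at 292 and 283 against 62.4 and 54.4, a change of -1.63 ± 0.11 (limma adjusted p = 0.00249), while its relatives Tle1, Tle4 and Tle5 were not called. Heyl, a Notch target, was at 1434 and 1228 against 432 and 399.5, a change of -0.98 ± 0.07 (limma adjusted p = 0.00281), whereas Hes1, Hes5 and Hey1, other Notch targets, were detected on no array, and Hey2 was at 37.8 and 42.5 against 6.49 and 14.3, the latter not above background, and not called (limma adjusted p = 0.135). Hmx2, a homeodomain factor of the vestibular ear, was at 377 and 336 against 139 and 156, a change of -0.58 ± 0.11 (limma adjusted p = 0.0205). Neurod1 was detected on 1 array, hair layer array 1, at 36.8. Neuron markers were measured too: of 6 tested, 4 were called higher in the supporting and 2 in the hair layer, with sums of 619 and 636 against 902 and 933, and Nefl and Nefm were not above background in the supporting layer.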
